A study of Homo sapiens with 50 samples.

Results

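H1 cells, an established line of human embryonic stem cells of WT genotype, were sequenced on day 3 of cardiac differentiation with IWP2 and in the differentiation control. The comparison described here rests on 4 of the 50 RNA libraries of the series, 2 from IWP2 cultures of day 3 and 2 from control cultures of day 3. Its members are the 13807 of 57905 listed genes that had at least 1 FPKM (a level corrected for exon length and for the depth of the library) in at least 2 of these 4 libraries. At the edge of that rule, 35 genes had a second highest value of 1 FPKM and were taken in, such as A1BG-AS1 with 1 and 1.03 FPKM in the IWP2 libraries and 0.82 and 1 FPKM in the control libraries. Another 44 genes at 0.99 FPKM were left out, such as AC002456.2 with 0.29 and 0.99 FPKM in the IWP2 libraries and 0.57 and 1.28 FPKM in the control libraries. The control cultures were on the same cardiac differentiation course and differ, per the labels, in IWP2 alone. A pair of further comparisons, which share no library with the first, are set beside it: IWP2 with NaHCO3 against NaHCO3 alone, both of day 3, and IWP2 against the control on day 5. The labels give neither doses nor times of addition, name a single cell line, and do not say whether the 2 libraries of a group came from separate cultures, so every p-value measures the spread between these libraries, which may be technical.

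WNT ligands are lipid-modified proteins. The acyltransferase PORCN in the endoplasmic reticulum attaches the lipid, the carrier WLS brings the ligand to the surface, and Frizzled receptors with LRP5 or LRP6 bind it. Bound receptors spare beta-catenin (CTNNB1) from breakdown, and beta-catenin with TCF/LEF factors switches on target genes, many of which feed back on the pathway. IWP2 is a small molecule that inhibits PORCN and so acts on ligand secretion. In the embryo and in differentiating stem cells, WNT signals act with NODAL and BMP to form the primitive streak, from which mesoderm and endoderm arise.

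Few genes changed with IWP2 on day 3. Of the 13807 members, 27 rose and 55 fell, so that 82 were called, which is 0.594% of the members (0.196% rose and 0.398% fell). Calls needed an adjusted p below 0.05 by edgeR's quasi-likelihood test, with Benjamini-Hochberg adjustment over all 17286 genes tested. They also needed a log2 fold change of 1 or more in either direction. Without the bound on size, 176 members (1.27%) had an adjusted p below 0.05, of which 58 were higher and 118 lower with IWP2, and 1099 had an unadjusted p under 0.05. Only CHRM4 rose 4-fold or more, and 6 members fell 4-fold or more. The median log2 fold change of the members was -0.01, with quartiles of -0.14 and 0.12. The count of called members was 45 when IWP2 replicate 1 was left out, 48 without IWP2 replicate 2, 49 without the first control replicate and 59 without the other. It was 43 or 46 with limma on log FPKM and 41 with the libraries of day 3 alone.

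Some members met the rule through a single group. Of all members, 13500 had at least 1 FPKM in a library of both groups, 142 in IWP2 libraries alone and 165 in control libraries alone, and 20 of the 82 called genes were of these last kinds (4 rose, 16 fell). For such genes a difference is built into the rule. The libraries of the groups did not overlap for any of the 82 called members, nor for 6478 members in all (46.9%). Another 24 called genes lay below the rule, 1 of them higher and 23 lower with IWP2, which makes 106 called genes of the 17286 tested (0.613%).

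**Figure D1:**
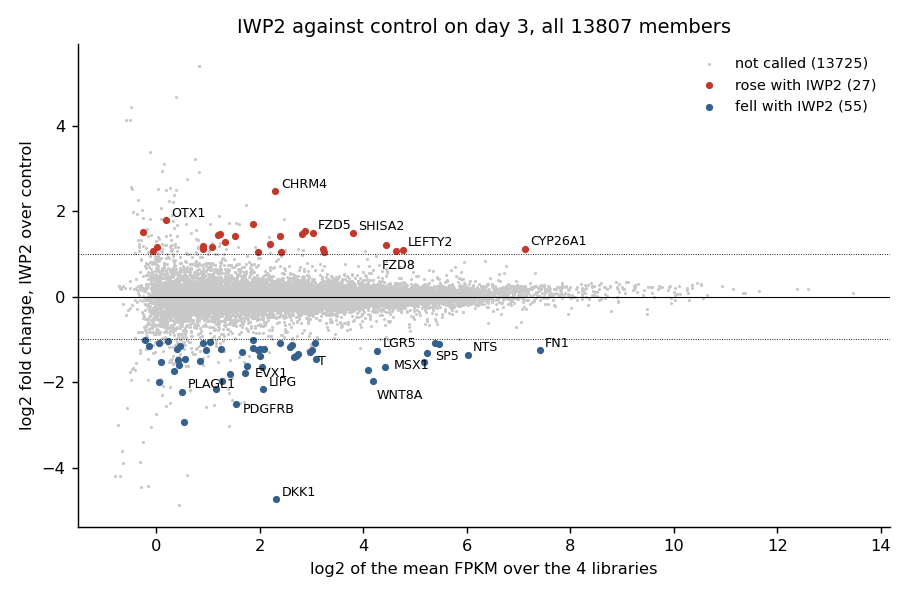
Log2 fold change of IWP2 over control on day 3 (vertical axis) against the log2 of the mean FPKM over the 4 libraries (horizontal axis), 1 point for each of the 13807 members. Red points are the 27 members that rose and blue points the 55 that fell; dotted lines mark log2 changes of 1 and -1, and DKK1 lies lowest of the called genes, at -4.74.

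Gene counts summed to between 16328774 and 22796553 in the 4 libraries, and mitochondrially encoded genes held 4.16% to 4.62% of counts in the IWP2 libraries and 3.99% to 4.35% in the control libraries. The spread used by the test comes from all 24 libraries of days 3 and 5, and among them the 2 libraries of day 3 given IWP2, NaHCO3 and 2-DG differ widely from each other, with an SD of 0.745 in their log2 difference over genes, against 0.284 to 0.365 in the other groups. Without those 2 libraries 103 members were called in place of 82, and 81 of these were the same genes. A streak factor and a pluripotency factor were both abundant in both groups. EOMES, a T-box factor of the streak, had 109 and 121 FPKM with IWP2, against 93.17 and 113 FPKM in the control. POU5F1 (OCT4), a pluripotency factor, had 155 and 151 FPKM with IWP2, against 141 and 164 FPKM in the control. The pluripotency markers NANOG, SOX2 and PRDM14 were far lower, at 10.92 FPKM or less in all 4 libraries.

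The list of WNT acylation and secretion genes also holds R-spondins, which strengthen WNT signals, and receptors for them. None of its 4 members was called. The R-spondin receptor LGR5 stands in the list of WNT targets instead. Of the 8 WNT ligands that are members, 1 fell. PORCN, the enzyme that IWP2 inhibits, had 7.4 and 6.73 FPKM with IWP2, against 6.38 and 6.51 FPKM in the control, at a log2 change of 0.14 (SE 0.13, adjusted p = 0.897). Its transcript did not pass the test. WLS, the ligand carrier, had 28.78 and 31.7 FPKM with IWP2, against 46.01 and 44.46 FPKM in the control, at a log2 change of -0.57 (SE 0.10, adjusted p = 0.00562). Both IWP2 libraries were lower, by less than the size needed for a call. WNT8A, a ligand of the streak (ENSG00000061492, chromosome 5, 137419581 to 137428054, plus strand on GRCh37), had 6.81 and 7.97 FPKM with IWP2, against 30.95 and 27.16 FPKM in the control, at a log2 change of -1.96 (SE 0.25, adjusted p = 0.000198). It was the only WNT ligand that fell, and its groups lie far apart. WNT5A, a ligand best known for beta-catenin-independent signalling, had 24.09 and 21.67 FPKM with IWP2, against 36.49 and 35.43 FPKM in the control (-0.64, adjusted p = 0.0273, below the size for a call). WNT3, a ligand needed for the streak in mice, had 12.53 and 12.99 FPKM with IWP2, against 17.77 and 15.84 FPKM in the control, without passing the test (adjusted p = 0.101). WNT3A, a related ligand, had 1.6 and 1.19 FPKM with IWP2, against 1.14 and 1.31 FPKM in the control, and did not pass it either (adjusted p = 0.948). WNT11 was the ligand with the highest ratio, at 6.32 and 5.59 FPKM with IWP2, against 4.04 and 3.3 FPKM in the control (0.70, adjusted p = 0.278). The other 11 ligands of the list did not reach the member rule. WNT8A lost its call with limma on log2(FPKM + 0.1), at an adjusted p of 0.065 (5.41e-31 to 0.065 over its 15 alternatives). Counting by strand is not stated in the sources used here, so WLS, WNT5A and WNT11, which overlap genes on the opposite strand, are less certain.

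The Frizzled receptors FZD5 and FZD8 rose. Of 15 receptors and co-receptors that are members, 2 rose and none fell, with a list median of -0.07 against -0.01 for all members. FZD5, which rose most (ENSG00000163251, chromosome 2, 208627310 to 208634287, minus strand), had 12.31 and 11.65 FPKM with IWP2, against 3.71 and 4.88 FPKM in the control, at a log2 change of 1.49 (SE 0.17, adjusted p = 4.00e-05). FZD8, a closely related receptor, had 34.14 and 33.02 FPKM with IWP2, against 14.76 and 17.41 FPKM in the control, at a log2 change of 1.07 (SE 0.12, adjusted p = 3.05e-05). For both genes each IWP2 library stood above each control library, as for every called member that rose, and the levels of FZD8 were the higher of the pair throughout. The remaining 13 lay between -0.47 for FZD9 and 0.75 for ROR1 on the log2 scale, including the co-receptors LRP5 (0.08) and LRP6 (-0.14). FZD10, the one receptor of the list below the member rule, was low and called lower, at 0.11 and 0.06 FPKM with IWP2, against 0.49 and 0.74 FPKM in the control (-2.85, adjusted p = 0.0425). FZD8 came to 0.96 without control replicate 1, just under the size for a call (adjusted p = 0.00263; 2e-20 to 0.00894 over its 15 alternatives). SHISA2, of a family known in Xenopus to hold Frizzled and FGF receptors in the endoplasmic reticulum, rose too: it had 18.78 and 22.27 FPKM with IWP2, against 6.49 and 8.34 FPKM in the control, at a log2 change of 1.48 (SE 0.15, adjusted p = 1.86e-05). None of 18 signal transducers between receptor and nucleus was called, with a median of 0.02, and CTNNB1 itself had 127 and 127 FPKM with IWP2, against 116 and 114 FPKM in the control (adjusted p = 0.783). Among 6 secreted WNT antagonists other than DKK1 and DKK4, such as SFRP1, FRZB and CER1, none was called.

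Feedback and target genes of WNT and beta-catenin included DKK1, the called member that fell most. Of 15 targets that are members, 5 fell and none rose, 14 had a lower level with IWP2 and 8 had an adjusted p under 0.05, and the list median was -0.61, against -0.01 for all members, of which 51.6% were lower. The list was drawn up with earlier results of these data known, so its direction is no independent evidence. The 3 promoters printed here, the 250 bases before the start that RefSeq annotates on GRCh38.p14, belong to DKK1 and SP5, which fell and are feedback genes of the pathway, and to T, a streak gene that fell (TBXT in RefSeq, where it has 2 entries). They are written 5′ to 3′ on the strand of the gene, and capitals mark CTTTGA, letters of the motif that TCF/LEF factors bind, or TCAAAG, its reverse complement.
DKK1, chr10:52314031-52314280, plus strand: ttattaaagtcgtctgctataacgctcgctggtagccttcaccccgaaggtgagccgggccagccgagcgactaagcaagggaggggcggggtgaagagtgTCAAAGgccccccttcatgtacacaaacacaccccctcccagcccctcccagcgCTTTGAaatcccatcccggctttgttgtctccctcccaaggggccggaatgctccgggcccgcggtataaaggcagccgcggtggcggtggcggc
SP5, chr2:170715087-170715336, plus strand: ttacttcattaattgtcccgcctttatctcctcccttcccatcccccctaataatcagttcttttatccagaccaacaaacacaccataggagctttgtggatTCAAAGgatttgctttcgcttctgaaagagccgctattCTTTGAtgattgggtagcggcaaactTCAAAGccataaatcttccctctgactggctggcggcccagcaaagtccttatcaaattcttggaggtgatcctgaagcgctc
TBXT, chr6:166167852-166168101, minus strand: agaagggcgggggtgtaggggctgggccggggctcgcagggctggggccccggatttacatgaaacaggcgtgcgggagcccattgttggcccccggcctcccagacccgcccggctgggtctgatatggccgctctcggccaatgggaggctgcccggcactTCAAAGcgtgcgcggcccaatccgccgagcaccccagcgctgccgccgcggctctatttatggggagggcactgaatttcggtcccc

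Counting the last base before the start as -1, the DKK1 window holds the letters at -149 to -144 in reverse and at -95 to -90 forward. The SP5 window holds them at -147 to -142 and at -83 to -78 in reverse and at -109 to -104 forward, and the TBXT window once, at -87 to -82 in reverse. Of 35116 promoter windows of this length in the RefSeq table, 11.2% hold the letters on either strand. That share counts windows, whereas the counts of members below take for each gene the entry with the most matches. Since 9844 of the 13807 members had a window, a comparison of shares between called and other members was void. Of the 35 members that fell and had a window, 6 held the letters, and the windows printed were chosen among these 6. The TBXT window was itself picked from its 2 entries by the number of matches. No match lay in the windows of TNFRSF19, WNT8A, MSX1, EVX1, LINC01124 or LIPG, which fell too. A match of letters is a description and shows no binding.

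DKK1, a secreted antagonist that WNT induces (ENSG00000107984, chromosome 10, 54074056 to 54077802, plus strand on GRCh37), had 0.51 and 0.19 FPKM with IWP2, against 9.27 and 9.99 FPKM in the control. That is the largest fall among the called members, at a log2 change of -4.74 (SE 0.33, adjusted p = 1.38e-07), and both IWP2 libraries were below the 1 FPKM of the member rule. SP5, a zinc finger factor induced by beta-catenin (ENSG00000204335, chromosome 2, 171571861 to 171574588, plus strand), had 24.83 and 18.22 FPKM with IWP2, against 52.06 and 55.97 FPKM in the control, at a log2 change of -1.32 (SE 0.17, adjusted p = 0.000192). LINC01124, a non-coding RNA on the opposite strand just upstream of SP5 (ENSG00000222033, chromosome 2, 171568961 to 171571077, minus strand), had 1.29 and 1.62 FPKM with IWP2, against 4.58 and 5.61 FPKM in the control, and fell as well (-1.79, adjusted p = 0.000939). Both genes of this neighbourhood had all IWP2 values below all control values, which the rule that named them required. LGR5, a receptor for R-spondins, had 9.61 and 12.89 FPKM with IWP2, against 30.68 and 23.56 FPKM in the control, at a log2 change of -1.26 (SE 0.17, adjusted p = 0.00035). NKD1, an inhibitor that acts on Dishevelled, had 4.55 and 5.01 FPKM with IWP2, against 12.63 and 10.19 FPKM in the control, at a log2 change of -1.25 (SE 0.19, adjusted p = 0.00131). TNFRSF19 (TROY), a receptor of the TNF family, was low in both groups, with 0.78 and 1.08 FPKM with IWP2, against 2.43 and 2.86 FPKM in the control, at a log2 change of -1.50 (SE 0.18, adjusted p = 7.57e-05). DACT1, a Dishevelled partner outside the list, had 19.59 and 17.21 FPKM with IWP2, against 53.15 and 53.56 FPKM in the control, at a log2 change of -1.52 (SE 0.12, adjusted p = 4.04e-07), with the 2 libraries of each group close to each other.

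Other targets were lower by less. LEF1, the TCF/LEF factor that is itself a target, had 8.04 and 7.31 FPKM with IWP2, against 16.27 and 12.2 FPKM in the control (-0.88, adjusted p = 0.000631). AXIN2, a scaffold of the beta-catenin destruction complex and a common readout of the pathway, had 6.51 and 5.48 FPKM with IWP2, against 9.46 and 8.97 FPKM in the control (-0.61, adjusted p = 0.00365). Both had all IWP2 values below all control values without reaching a 2-fold change. TCF7 (-0.59, adjusted p = 0.0229) was of the same kind, while NOTUM, a secreted deacylase of WNT, had 2.91 and 3.72 FPKM with IWP2, against 4.85 and 5.41 FPKM in the control, and missed the threshold (-0.62, adjusted p = 0.522). MYC was the one target with a higher level in the IWP2 libraries (0.36, adjusted p = 0.512). TNFRSF19 came to -0.92 with limma on log2(FPKM + 1), which ended its call (adjusted p = 0.00192; 1.46e-13 to 0.0136 over its 15 alternatives). LEF1 passed the size for a call without control replicate 2, at -1.05. LEF1, LGR5 and NKD1 overlap genes on the opposite strand.

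**Figure D2:**
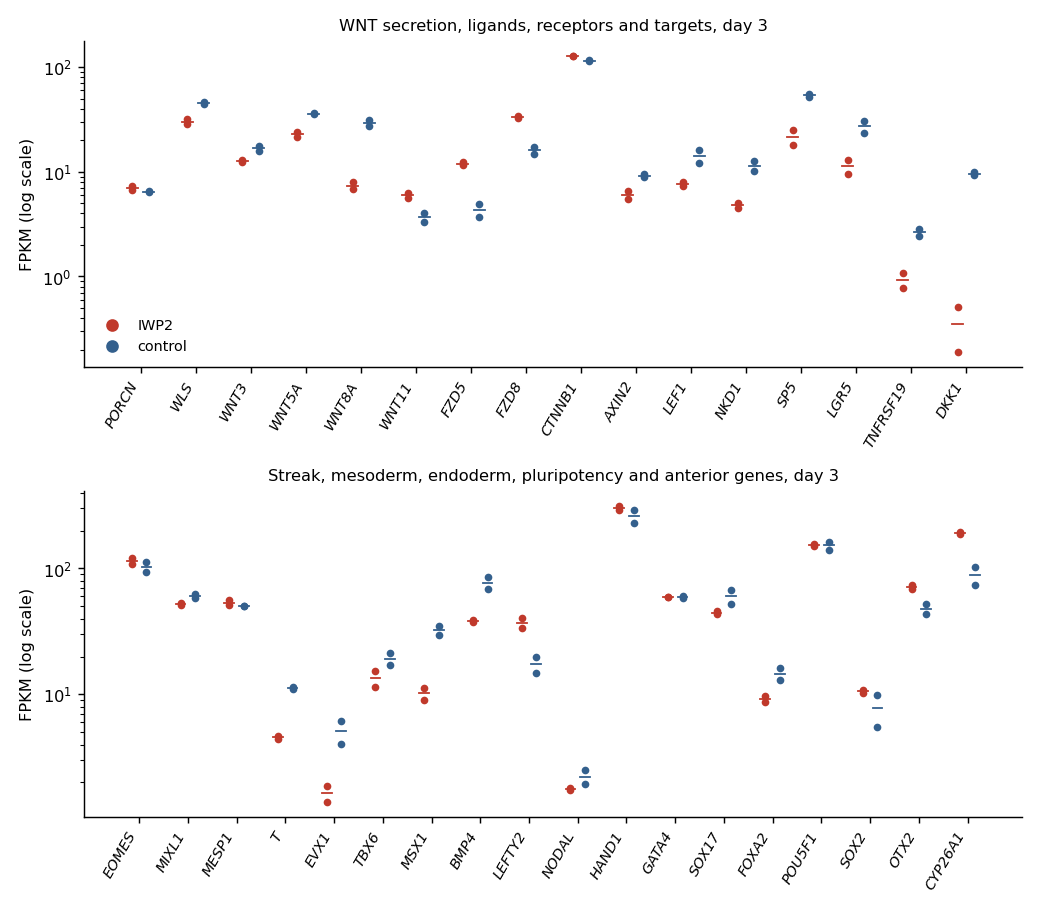
FPKM on a log scale in each library of day 3 (points) with the mean of each group (bars), IWP2 in red and control in blue. The upper panel shows 16 WNT pathway genes, where DKK1 is at 0.51 and 0.19 with IWP2 against 9.27 and 9.99 in the control; the lower panel shows 18 genes of streak, mesoderm, endoderm, pluripotency and anterior identity, where T separates the groups and EOMES does not.

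Primitive streak factors divided. Of 10, all members, 2 fell and 8 were not called, with a median of -0.01, the same as over all members. T (brachyury), a T-box factor of the streak and of nascent mesoderm (ENSG00000164458, chromosome 6, 166571144 to 166582188, minus strand on GRCh37), had 4.44 and 4.66 FPKM with IWP2, against 11.41 and 11.02 FPKM in the control, at a log2 change of -1.29 (SE 0.18, adjusted p = 0.000419). EVX1, a homeobox factor of the posterior streak, had 1.87 and 1.4 FPKM with IWP2, against 4.06 and 6.19 FPKM in the control, at a log2 change of -1.63 (SE 0.22, adjusted p = 0.00038). EVX1-AS, which lies on the other strand of the same locus, had 0.09 and 0.58 FPKM with IWP2, against 2.61 and 2.55 FPKM in the control (-2.93, adjusted p = 0.00239), so the split of reads between both transcripts is uncertain. EVX1-AS is a member through the control libraries alone. The other streak factors stood at similar levels in both groups. MIXL1, a homeobox factor of mesendoderm, had 51.74 and 52.91 FPKM with IWP2, against 58.7 and 63.01 FPKM in the control (-0.21, adjusted p = 0.868). MESP1, the factor of the earliest cardiac progenitors, had 56.12 and 50.82 FPKM with IWP2, against 49.92 and 50.34 FPKM in the control (0.10, adjusted p = 0.955). The sum of FPKM over 6 streak markers (T, EOMES, MIXL1, GSC, EVX1 and MESP1) was 235 and 243 in the IWP2 libraries, against 229 and 255 in the control libraries, and these overlap. In bulk RNA, fewer cells of a type and less RNA per cell cannot be told apart. T lost its call with limma on log2(FPKM + 0.1), at an adjusted p of 0.0814 (9.43e-16 to 0.0814 over its 15 alternatives).

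Posterior genes downstream of WNT were low on day 3. CDX1 and CDX2, caudal factors of the posterior body, lie below the member rule: CDX2 had 0.17 and 0.06 FPKM with IWP2, against 0.97 and 0.53 FPKM in the control (-2.69, adjusted p = 0.00126). CDX1 had 0.24 and 0.03 FPKM with IWP2, against 0.82 and 0.76 FPKM in the control (-2.49, adjusted p = 0.0363). MSGN1, a factor of presomitic mesoderm, was at 0 and 0.1 FPKM with IWP2, against 0.36 and 0.1 FPKM in the control, and 24 of the 25 caudal and HOX genes of the list were not members. TBX6, a T-box factor of presomitic mesoderm, had 15.39 and 11.53 FPKM with IWP2, against 21.42 and 17.02 FPKM in the control, and was not called (-0.50, adjusted p = 0.217). The summed FPKM of 4 presomitic markers (TBX6, MSGN1, DLL1 and DLL3) was 171 and 147 in the IWP2 libraries, against 188 and 206 in the control libraries. That sum was lower with IWP2, without a called gene in it. DLL3 made up most of it, with 135.21 and 116.38 FPKM with IWP2, against 137.09 and 162.41 FPKM in the control, so it says little about the other markers. UNCX, a homeobox gene of the posterior part of somites, was the called member of the somite list and rose, with 4.08 and 2.81 FPKM with IWP2, against 1.39 and 1.1 FPKM in the control (1.47, adjusted p = 0.0296). It lost its call under 7 of 15 alternatives, among them leaving out any 1 of the 4 libraries, where the log2 fold change ran between 1.17 and 1.71. The call of CDX1 ended under 7 of 14 alternatives, among them without IWP2 replicate 2 (-1.72) or without the first (-2.42) or the other control library (-2.52), and that of CDX2 under 2, among them without IWP2 replicate 2 (-2.13).

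None of 12 cardiac mesoderm genes, 9 endoderm genes and 14 pluripotency genes that are members was called, with medians of 0.10, -0.32 and -0.08. FOXA1, an endoderm factor of the list that lies below the member rule, was called lower, with 0.49 and 0.54 FPKM with IWP2, against 0.98 and 1.51 FPKM in the control (-1.25, adjusted p = 0.0283). NR0B1 (DAX1), which stands on no list and is known from mouse pluripotent cells, was named after its values were seen and rose, with 6.43 and 7.95 FPKM with IWP2, against 3.29 and 3.73 FPKM in the control (1.05, adjusted p = 0.0414). HAND1, a factor of lateral and cardiac mesoderm, had 313 and 290 FPKM with IWP2, against 290 and 232 FPKM in the control (0.22, adjusted p = 0.833). GATA4, a factor shared by heart and endoderm, had 59.01 and 59.01 FPKM with IWP2, against 58.49 and 60.33 FPKM in the control (0.00, adjusted p = 1). Neither passed the test, and of the 5 summed markers of cardiac mesoderm none was called. SOX17, an endoderm factor, had 46.06 and 43.17 FPKM with IWP2, against 52.26 and 67.72 FPKM in the control (-0.42, adjusted p = 0.26). FOXA2, a pioneer factor of endoderm, had 9.77 and 8.75 FPKM with IWP2, against 13.04 and 16.14 FPKM in the control (-0.64, adjusted p = 0.0898). Both were lower in the IWP2 libraries without passing the threshold. HHEX, a homeobox gene of anterior endoderm, had 5.38 and 5.01 FPKM with IWP2, against 2.78 and 2.81 FPKM in the control, and an adjusted p of 0.021 at a log2 fold change of 0.91, under the size for a call. SOX2, shared by pluripotent and neural cells, had 10.19 and 10.92 FPKM with IWP2, against 5.54 and 9.93 FPKM in the control (0.47, adjusted p = 0.65). NANOG, a pluripotency factor, had 2.03 and 2.68 FPKM with IWP2, against 2.03 and 3.03 FPKM in the control, and the groups overlapped for it. Among 4 markers of heart muscle, TNNT2, cardiac troponin T, had 0.02 and 0.03 FPKM with IWP2, against 0.05 and 0.11 FPKM in the control. MYL7, an atrial myosin light chain and the one member among them, had 4.02 and 2.23 FPKM with IWP2, against 4.27 and 4.38 FPKM in the control, and was not called. MYH6 and ACTN2 stayed at 0.35 FPKM or less in all 4 libraries.

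None of the 6 neural and anterior ectoderm markers that are members was called, with a median of 0.20. OTX1, a homeobox factor of forebrain and midbrain, stands outside that list, was named after its values were seen and rose, with 1.63 and 1.9 FPKM with IWP2, against 0.36 and 0.68 FPKM in the control (1.79, adjusted p = 0.0136). It is a member through the IWP2 libraries alone. Its paralog OTX2, of anterior epiblast and endoderm and on the list, had 68.49 and 73.74 FPKM with IWP2, against 43.9 and 52.23 FPKM in the control, higher with IWP2 but under the size for a call (0.58, adjusted p = 0.00934). CYP26A1, which breaks down retinoic acid, was the most abundant of the risers, with 189 and 193 FPKM with IWP2, against 74.16 and 102 FPKM in the control, at a log2 change of 1.13 (SE 0.23, adjusted p = 0.0124). RXRG, a retinoid X receptor, fell, with 3.79 and 3.7 FPKM with IWP2, against 9.13 and 10.07 FPKM in the control, at a log2 change of -1.35 (SE 0.21, adjusted p = 0.00165). These were the 2 called genes among 11 of the retinoic acid list. PAX7, a paired box factor of neural crest and muscle precursors, had 3.91 and 4.47 FPKM with IWP2, against 1.37 and 1.8 FPKM in the control, and rose (1.42, adjusted p = 0.00379). Of the 4 markers of neural ectoderm, SOX1 had no more than 0.01 FPKM, PAX6 no more than 0.07 FPKM and SOX3 no more than 0.59 FPKM in any of the 4 libraries. The other, SIX3, a homeobox factor of the forebrain, had 7.14 and 5.94 FPKM with IWP2, against 5.12 and 6.73 FPKM in the control, and its groups overlapped. Of the other markers of neural crest, TFAP2B was at 0 in all 4 libraries. SOX10 had 3.64 and 3.98 FPKM with IWP2, against 2.99 and 3.66 FPKM in the control, and FOXD3 had 1.78 and 1.6 FPKM with IWP2, against 1.68 and 2.24 FPKM in the control, neither of them called. The call of CYP26A1 ended under 5 of 15 alternatives, among them without IWP2 replicate 1 (1.14), IWP2 replicate 2 (1.11) or control replicate 1 (0.92). That of PAX7 ended under 4, among them without IWP2 replicate 2 (1.32) or control replicate 1 (1.23).

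In the NODAL and BMP lists 1 gene each was called, and in the FGF and NOTCH lists none. Without the bound on size, 2 NODAL, 3 BMP and 2 FGF genes had an adjusted p below 0.05, and no NOTCH gene did. LEFTY2, a secreted NODAL antagonist and NODAL target, rose alone among 14 NODAL pathway genes, with 40.22 and 33.57 FPKM with IWP2, against 14.8 and 19.88 FPKM in the control, at a log2 change of 1.10 (SE 0.19, adjusted p = 0.00397). NODAL itself had 1.75 and 1.81 FPKM with IWP2, against 2.49 and 1.94 FPKM in the control (-0.32, adjusted p = 0.893). LEFTY2 is close in sequence to LEFTY1, which was listed below 1 FPKM in all 4 libraries. In the BMP list, MSX1 fell alone among 15: MSX1, a homeobox factor induced by BMP and WNT (ENSG00000163132, chromosome 4, 4861393 to 4865663, plus strand), had 11.32 and 9.07 FPKM with IWP2, against 29.78 and 35.01 FPKM in the control, at a log2 change of -1.65 (SE 0.27, adjusted p = 0.00211). BMP4, the ligand, had 37.72 and 39.2 FPKM with IWP2, against 85.21 and 68.82 FPKM in the control, and sat just under the size for a call (-0.99, adjusted p = 2.75e-05). None of 19 FGF ligands and feedback genes was called. FGF8, a ligand of the streak, had 18.99 and 18.83 FPKM with IWP2, against 18.95 and 19.78 FPKM in the control. FGF17, a related ligand, had 50.96 and 46.24 FPKM with IWP2, against 36.63 and 51.67 FPKM in the control, and its groups overlapped. None of 15 NOTCH genes was called, although 14 of them were lower with IWP2 (median -0.25). LEFTY2 lost its call without IWP2 replicate 1 (0.96), without control replicate 1 (0.91) and with limma on log2(FPKM + 0.1) (adjusted p = 0.141; 2.1e-08 to 0.141 over its 15 alternatives). MSX1 lost it without IWP2 replicate 2, at -1.50 (adjusted p = 0.0823; 2.53e-25 to 0.0823 over its 15 alternatives). BMP4 passed it without control replicate 2 (-1.12), without IWP2 replicate 2 (-1.02) and with total counts alone (-1.002).

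Among the 16 epithelial and mesenchymal genes that are members, FN1 alone was called. LIPG, HAPLN1, SPON1, COL6A6, PCDH19, CDH22 and PDGFRB, given with it, stand outside that list. LIPG, endothelial lipase (ENSG00000101670, chromosome 18, 47087069 to 47119272, plus strand), had 1.5 and 1.53 FPKM with IWP2, against 6.74 and 6.94 FPKM in the control, with the 2 libraries of each group close together. FN1, fibronectin, was the most abundant gene that fell, with 93.23 and 106 FPKM with IWP2, against 241 and 238 FPKM in the control, at a log2 change of -1.25 (SE 0.26, adjusted p = 0.0175). Of the 16 genes of its list 15 were lower with IWP2 (median -0.39). HAPLN1, which links hyaluronan to proteoglycans and stands in the list of amnion and trophoblast markers as its single called gene, had 25.98 and 27.57 FPKM with IWP2, against 65.14 and 49.14 FPKM in the control, at a log2 change of -1.08 (SE 0.14, adjusted p = 0.000182). SPON1, a secreted matrix protein of the floor plate, had 1.7 and 2.25 FPKM with IWP2, against 6.76 and 5.67 FPKM in the control, at a log2 change of -1.65 (SE 0.17, adjusted p = 2.03e-05). COL6A6, a collagen chain named after its values were seen, rose, with 1.21 and 1.6 FPKM with IWP2, against 0.69 and 0.56 FPKM in the control (1.17, adjusted p = 0.00916). COL6A6 is a member through the IWP2 libraries alone. PCDH19, a protocadherin, had 4.53 and 4.41 FPKM with IWP2, against 13.34 and 11.48 FPKM in the control (-1.46, adjusted p = 0.00304). CDH1, E-cadherin, had 16.7 and 18.04 FPKM with IWP2, against 20.62 and 26.68 FPKM in the control, lower without being called (-0.43, adjusted p = 0.335). CDH2, N-cadherin, had 36 and 40.63 FPKM with IWP2, against 48.82 and 58.9 FPKM in the control, also lower without being called (-0.48, adjusted p = 0.12). CDH22 rose, with 10.29 and 10.35 FPKM with IWP2, against 3.76 and 3.71 FPKM in the control (1.48, adjusted p = 0.00211). PDGFRB, a PDGF receptor named after its values were seen, had 0.8 and 0.93 FPKM with IWP2, against 6.24 and 3.63 FPKM in the control (-2.51, adjusted p = 2.03e-05). PDGFRB is a member through the control libraries alone. PDGFRA, its paralog of early mesoderm, was not called, with 32.08 and 35.21 FPKM with IWP2, against 37.75 and 28.09 FPKM in the control (0.04, adjusted p = 0.992).

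Several of these calls depended on single libraries or on the test. FN1 lost its call when any 1 of the 4 libraries was left out, with log2 fold changes between -1.35 and -1.16, with either limma setting and with the libraries of day 3 alone (adjusted p = 1.02e-32 to 0.277 over its 15 alternatives). PCDH19 lost it under 4 alternatives, among them without IWP2 replicate 1 (-1.49), IWP2 replicate 2 (-1.44) or control replicate 1 (-1.34), HAPLN1 without control replicate 1 (-0.86), and CDH22 with limma on log2(FPKM + 0.1) (adjusted p = 0.065; 3.81e-22 to 0.065 over its 15 alternatives). LIPG, SPON1 and DACT1 stayed called under all 15 alternatives.

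The genes of this paragraph belong to no list and carry no test as a group. NPY, neuropeptide Y, had 8.37 and 7.45 FPKM with IWP2, against 28.1 and 23.99 FPKM in the control, at a log2 change of -1.71 (SE 0.20, adjusted p = 7.57e-05). NTS, neurotensin, named after its values were seen, had 37.01 and 34.85 FPKM with IWP2, against 98.68 and 87.89 FPKM in the control (-1.37, adjusted p = 0.000631). For both peptides the control libraries stood well above the IWP2 libraries. CHRM4, a muscarinic acetylcholine receptor (ENSG00000180720, chromosome 11, 46406640 to 46408107, minus strand), had 7.03 and 9.64 FPKM with IWP2, against 1.34 and 1.7 FPKM in the control, at a log2 change of 2.47 (SE 0.38, adjusted p = 0.00132), the largest rise among the members. CHRNB4, a nicotinic receptor subunit, had 7.06 and 8.14 FPKM with IWP2, against 2.77 and 2.96 FPKM in the control (1.42, adjusted p = 0.00211). GRIK3, a kainate receptor subunit, had 10.49 and 11.37 FPKM with IWP2, against 3.33 and 4.22 FPKM in the control (1.55, adjusted p = 0.0141). CHRNA3, a nicotinic subunit named after its values were seen, had 2.36 and 2.8 FPKM with IWP2, against 1.07 and 1.23 FPKM in the control, and rose (1.19, adjusted p = 0.00492). NGEF, a guanine nucleotide exchange factor of ephrin signalling, had 7.01 and 5.72 FPKM with IWP2, against 2.67 and 2.83 FPKM in the control (1.22, adjusted p = 0.000254). All 5 of these risers had every IWP2 value above every control value, which held for every called member that rose and is no further evidence. CHRM4 lost its call without control replicate 1 (2.31, adjusted p = 0.0547; 1.29e-17 to 0.0547 over its 15 alternatives), CHRNB4 without the same library (1.38) and with limma on log2(FPKM + 0.1), and NGEF with limma on log2(FPKM + 1) (0.97). GRIK3 lost it under 6 of 15 alternatives, among them leaving out any 1 of the 4 libraries, with log2 fold changes between 1.39 and 1.75.

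The rest of the genes named by the rule follow. ARHGAP24, a GTPase-activating protein for Rac, had 2.2 and 2.24 FPKM with IWP2, against 5.36 and 6.35 FPKM in the control, and fell (-1.39, adjusted p = 0.000198). CST1, a salivary cystatin with near-identical relatives, had 3.67 and 3.16 FPKM with IWP2, against 7.24 and 11.24 FPKM in the control, and fell (-1.41, adjusted p = 0.0281). FNDC4, a secreted fibronectin type III protein, had 29.61 and 30.74 FPKM with IWP2, against 12.08 and 14.31 FPKM in the control, and rose (1.21, adjusted p = 3.79e-05). RGAG4, a gene derived from a retrotransposon, had 12.77 and 12.6 FPKM with IWP2, against 5.8 and 5.94 FPKM in the control, and rose (1.12, adjusted p = 1.86e-05). For all 4 the groups did not overlap, which the rule that named them required. APCDD1L-AS1, an antisense RNA, had 5.7 and 5.37 FPKM with IWP2, against 1.71 and 1.74 FPKM in the control, and rose (1.69, adjusted p = 0.0112). The call of APCDD1L-AS1 ended under 5 of 15 alternatives, among them leaving out any 1 of the 4 libraries (1.65 to 1.74). CST1 lost its call under 5, among them without IWP2 replicate 1 (-1.52), IWP2 replicate 2 (-1.30) or control replicate 2 (-1.05), and RGAG4 with limma on log2(FPKM + 1) (0.99). ARHGAP24, CHRNA3, CHRNB4, FOXA1, HAPLN1, NGEF, PDK1, RGAG4 and SPON1 overlap genes on the opposite strand and are less certain for that reason.

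Sums over marker genes were set beside these results. The 5 cardiac mesoderm markers (HAND1, GATA4, GATA6, ISL1 and PDGFRA) summed to 476 and 456 FPKM in the IWP2 libraries, against 452 and 384 FPKM in the control libraries. The 4 endoderm markers (SOX17, FOXA2, CXCR4 and HHEX) summed to 74.6 and 71.8 FPKM in the IWP2 libraries, against 83.2 and 107 FPKM in the control libraries. The first sum was slightly higher and the second lower with IWP2, with no gene called in either. HAND1 made up most of the first and SOX17 most of the second, in which HHEX was higher with IWP2. The 4 pluripotency markers summed to 172 and 167 FPKM in the IWP2 libraries, against 152 and 180 FPKM in the control libraries, and overlapped. POU5F1 made up nearly all of these sums, so they say little about the other markers. Markers of amnion and trophoblast, of which GATA3 made up nearly all and CGA was at 0, summed to 19.2 and 20.2 FPKM in the IWP2 libraries, against 15.8 and 16.2 FPKM in the control libraries. Those of neural crest summed to 9.33 and 10.1 FPKM in the IWP2 libraries, against 6.04 and 7.7 FPKM in the control libraries, with 1 of 4 called (PAX7). Sums for neural ectoderm, endothelium and blood, and heart muscle stayed at 7.61 FPKM or less in all 4 libraries. The part of any of these cell types in the results was not tested.

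Genes of growth, metabolism and stress held few calls, as did the members as a whole, of which 0.594% were called. No called gene was found among 19 genes of replication and mitosis, 12 of hypoxia, 13 p53 targets, 13 of the integrated stress response, 16 of cholesterol and fatty acid synthesis, 11 YAP targets and 13 mitochondrially encoded genes. In glycolysis 1 of 20 fell, PDK1, the kinase that restrains pyruvate dehydrogenase, with 2.99 and 3.66 FPKM with IWP2, against 6.5 and 7.73 FPKM in the control (-1.09, adjusted p = 0.000288). In all, 22 of the 34 lists held no called member. At the share called over all members, most lists this short would hold none, so a list without calls is no result about its genes. PDK1 lost its call without IWP2 replicate 1 (-0.95) or control replicate 2 (-0.94) and with limma on log2(FPKM + 1) (-0.91).

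**Figure D3:**
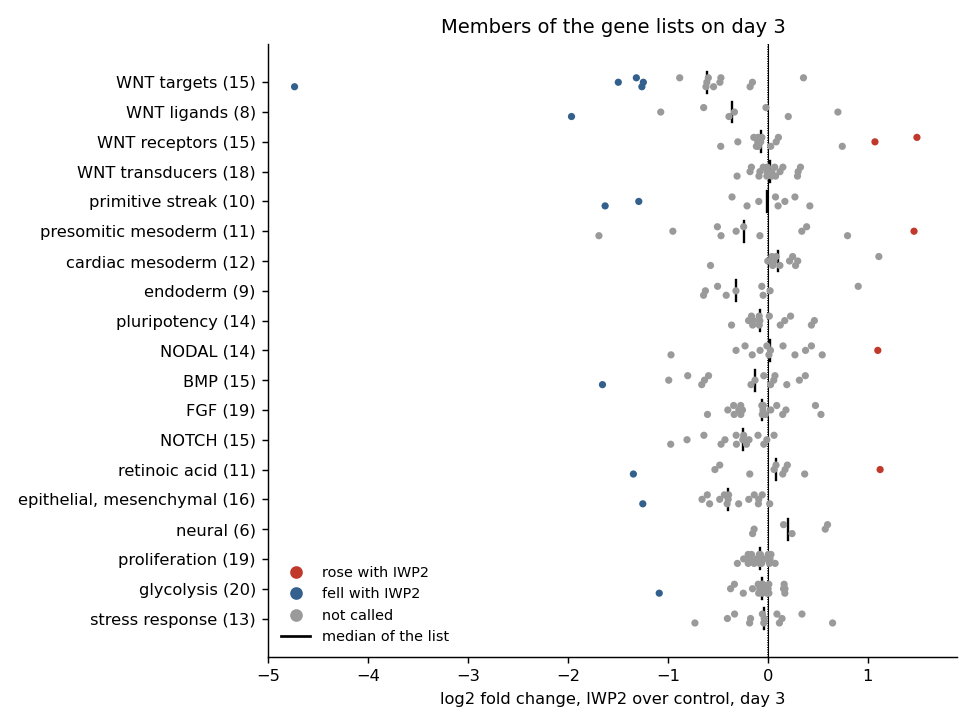
Log2 fold change of IWP2 over control on day 3 (horizontal axis) for the members of 19 gene lists, 1 point per gene, with the number of members in brackets and the list median as a black bar; the dotted line is the median of all members. Red genes rose and blue genes fell; the WNT targets lie furthest to the left, with a median of -0.61, while the medians of replication and stress genes are -0.08 and -0.04.

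The same inhibitor was given together with NaHCO3, a base, and 4 other libraries of day 3 allow IWP2 with NaHCO3 to be compared with NaHCO3 alone. More members were called there: 144 rose and 160 fell, 2.2% of the members (1.04% rose and 1.16% fell). Of the 27 members that rose with IWP2 without NaHCO3, 26 were also higher and 20 rose in this second set, with a median of 1.69 against 1.22 without NaHCO3. CHRNA3 alone was not higher there (-0.16, adjusted p = 0.817). Of the 55 that fell, 55 were also lower and 41 fell, with a median of -1.68 against -1.35. These overlaps are 13.9% of the members that rose and 25.6% of those that fell with NaHCO3. Of all members, 47.9% were higher and 52% lower with IWP2 in this second set, with a median of -0.01. No member was called in opposite directions.

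T shows the contrast between both sets. It had 4.75 and 5.37 FPKM with IWP2 and NaHCO3, against 74.52 and 74.22 FPKM with NaHCO3 alone, at a log2 change of -3.92 (SE 0.19, adjusted p = 1.37e-10), a wider gap than without NaHCO3, with similar levels under IWP2 in both sets. DKK1 had 0.98 and 1.1 FPKM with IWP2 and NaHCO3, against 27.38 and 29.76 FPKM with NaHCO3 alone, at a log2 change of -4.81 (SE 0.29, adjusted p = 3.01e-09). NKD1 had 10.09 and 9.03 FPKM with IWP2 and NaHCO3, against 55.92 and 52.07 FPKM with NaHCO3 alone. SP5 had 33.66 and 34.62 FPKM with IWP2 and NaHCO3, against 93.39 and 95.69 FPKM with NaHCO3 alone. For each of these 4 genes the NaHCO3 libraries lay above the control libraries of day 3, a difference not tested here. WNT8A had 5.22 and 5.57 FPKM with IWP2 and NaHCO3, against 40.58 and 44.41 FPKM with NaHCO3 alone (-3.02, adjusted p = 2.47e-07). Rises recurred as well: FZD5 had 5.68 and 6.51 FPKM with IWP2 and NaHCO3, against 1.29 and 1.21 FPKM with NaHCO3 alone (2.24, adjusted p = 1.48e-07). SHISA2 had 7.01 and 8.11 FPKM with IWP2 and NaHCO3, against 1.63 and 1.55 FPKM with NaHCO3 alone (2.21, adjusted p = 1.03e-07). Of the 5 targets that fell without NaHCO3, LGR5 alone was not called with it, with 49.89 and 48.8 FPKM with IWP2 and NaHCO3, against 67.27 and 65.53 FPKM with NaHCO3 alone (-0.47, adjusted p = 0.0989). FN1 (-0.73, adjusted p = 0.0999), RXRG (-0.76, adjusted p = 0.031), HAPLN1 (-0.88, adjusted p = 0.000209), CYP26A1 (0.96, adjusted p = 0.0129) and FZD8 (0.94, adjusted p = 2.47e-05) kept their direction without being called.

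**Figure D4:**
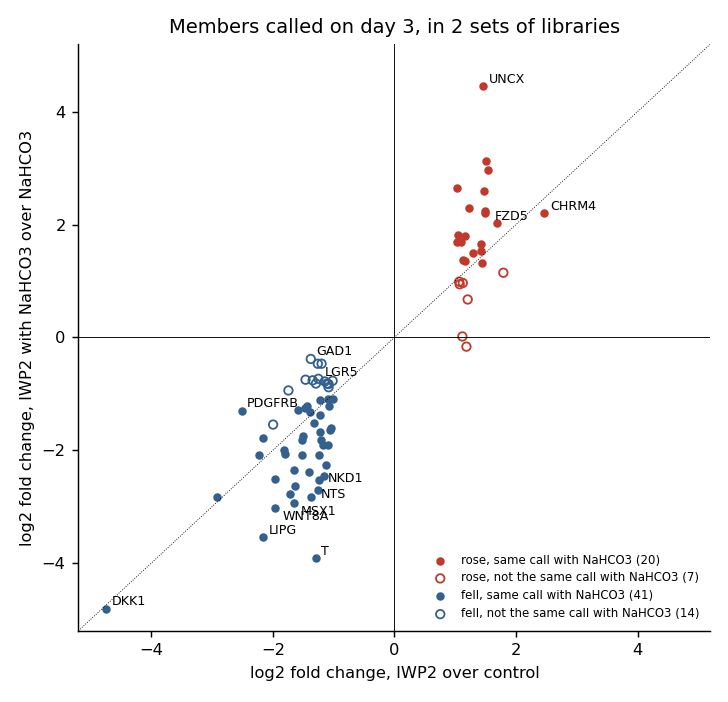
The 82 members called on day 3, by their log2 fold change of IWP2 over control (horizontal axis) and of IWP2 with NaHCO3 over NaHCO3 (vertical axis), in sets of 4 libraries that share none. Filled points were called the same way in both sets (20 that rose in red, 41 that fell in blue), open points were not, and the dotted diagonal marks equal changes; T and LIPG lie well below it.

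The difference between both effects was tested as an interaction. It was called for 54 members (0.391%), 34 of them more negative (0.246%) and 20 more positive (0.145%) with NaHCO3, and 5 of the 54 were among the 82 genes called without it. The effect on T was -3.92 with NaHCO3 against -1.29 without it, a log2 difference of -2.62 (SE 0.25, adjusted p = 4.84e-05). NKD1 and LIPG also fell further with NaHCO3, by log2 differences of -1.29 (adjusted p = 0.031) and -1.38 (adjusted p = 0.00345). AXIN2, not called without NaHCO3, had 5.88 and 5.44 FPKM with IWP2 and NaHCO3, against 16.83 and 16.99 FPKM with NaHCO3 alone, a log2 difference of -1.01 between both effects (adjusted p = 0.00245). The ligands WNT3A, with 0.61 and 0.74 FPKM with IWP2 and NaHCO3, against 5.8 and 5.87 FPKM with NaHCO3 alone, and WNT5B, with 4.75 and 4 FPKM with IWP2 and NaHCO3, against 10.68 and 9.62 FPKM with NaHCO3 alone, fell here and were not called without NaHCO3 (log2 differences of -3.36 and -1.23). SOX2 went the other way, with 10.04 and 11.62 FPKM with IWP2 and NaHCO3, against 2.02 and 1.76 FPKM with NaHCO3 alone, a log2 difference of 2.00 (adjusted p = 0.0112). CDX2, below the member rule, had 0.27 and 0.15 FPKM with IWP2 and NaHCO3, against 13.75 and 14.06 FPKM with NaHCO3 alone (-6.07, adjusted p = 5.76e-10). MSGN1 was at 0 in both libraries of IWP2 with NaHCO3, against 28.05 and 25.88 FPKM in the NaHCO3 libraries. The count of 54 rests on the settings more than the others do: it was 115 without the 2 libraries with 2-DG of day 3, 13 with the libraries of day 3 alone, 21 without control replicate 1 and 42 without control replicate 2 of day 3. Leaving out 1 of the other 6 libraries of the test gave 22 to 28.

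On day 5, in libraries shared with neither set, more members were called. IWP2 against the control of day 5 gave 148 rises and 509 falls among the members, 4.76% of them (1.07% rose and 3.69% fell). Of the 27 members that rose on day 3, 11 rose again on day 5 and 3 fell, and of the 55 that fell on day 3, 25 fell again and 2 rose. The 3 with opposite calls after a rise were GRIK3, NGEF and STC1, and the 2 after a fall were NPY and PDK1. NPY had 90.59 and 81.43 FPKM with IWP2 on day 5, against 35.04 and 31.81 FPKM in the control of day 5 (1.37, adjusted p = 1.37e-05). PDK1 had 34.52 and 35.87 FPKM with IWP2 on day 5, against 13.91 and 13.36 FPKM in the control of day 5 (1.38, adjusted p = 6.59e-07). Both IWP2 groups of day 5 stood above their control, where those of day 3 stood below it. SP5 had 4.54 and 4.44 FPKM with IWP2 on day 5, against 17.13 and 14.86 FPKM in the control of day 5 (-1.83, adjusted p = 5.18e-07), and NKD1 (-1.58), MSX1 (-1.46), EVX1 (-1.70) and LIPG (-2.97) fell again. DKK1 had 2.88 and 1.69 FPKM with IWP2 on day 5, against 7.95 and 7.08 FPKM in the control of day 5 (-1.71, adjusted p = 6.03e-05), a smaller fall than on day 3. SHISA2 rose again, with 21.9 and 19.08 FPKM with IWP2 on day 5, against 7.14 and 7.06 FPKM in the control of day 5, and FZD5 did not, with 2.65 and 3.32 FPKM with IWP2 on day 5, against 4.08 and 4.38 FPKM in the control of day 5.

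The effect of IWP2 differed between day 5 and day 3 for 536 members by the interaction test (3.88%), 395 more negative (2.86%) and 141 more positive (1.02%) on day 5, and 26 of them were called on day 3. Endoderm factors show it: SOX17 had 3.5 and 3.28 FPKM with IWP2 on day 5, against 20.8 and 18.96 FPKM in the control of day 5 (-2.54, adjusted p = 1.43e-09). FOXA2 had 3.57 and 3.82 FPKM with IWP2 on day 5, against 23.6 and 23.76 FPKM in the control of day 5 (-2.67, adjusted p = 4.25e-09), where neither was called on day 3. Of 9 endoderm genes 6 fell on day 5, against none on day 3. FZD8 had 22.56 and 20.66 FPKM with IWP2 on day 5, against 32.14 and 32.56 FPKM in the control of day 5, a log2 effect of -0.57 on day 5 against 1.07 on day 3 (adjusted p = 2.42e-06 for the difference). TNNT2 of heart muscle, which lies below the member rule, had 60.78 and 51.76 FPKM with IWP2 on day 5, against 25.86 and 25.57 FPKM in the control of day 5.

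**Figure D5:**
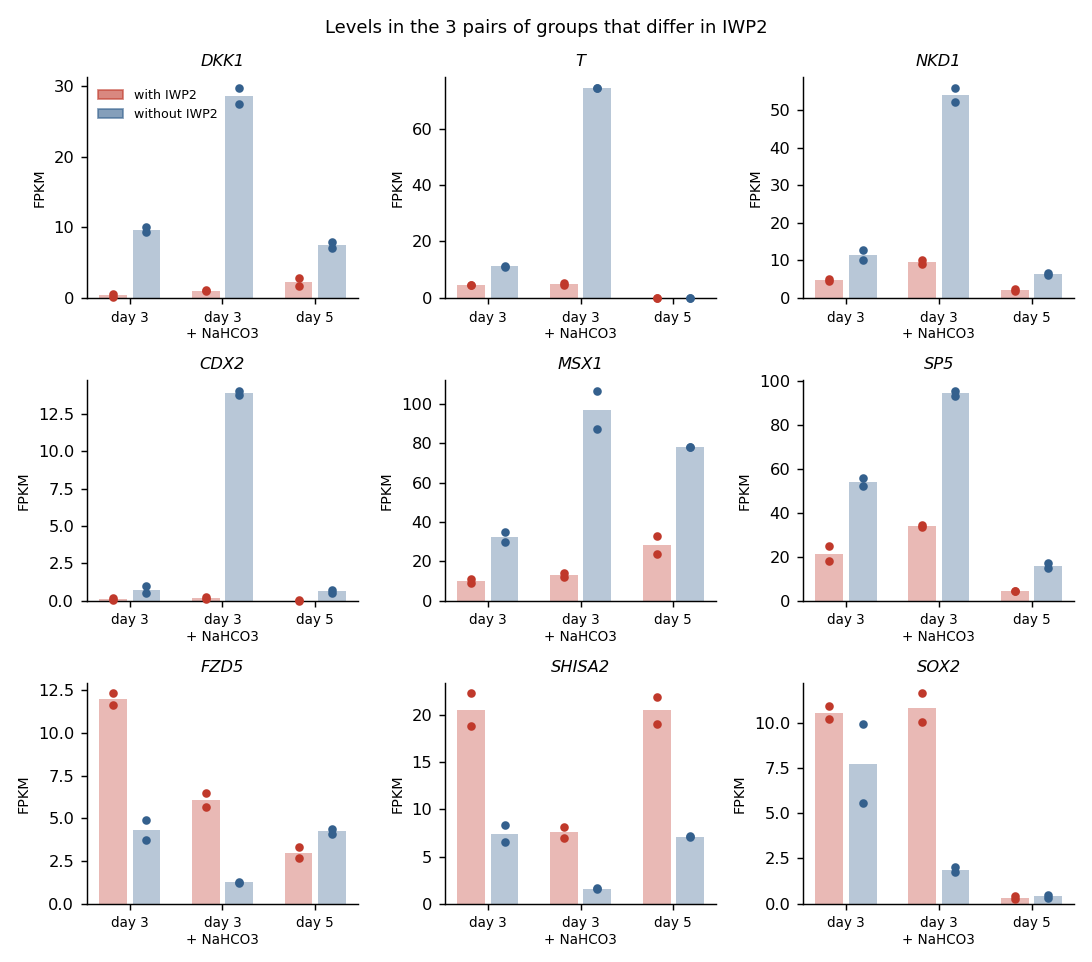
FPKM of 9 genes in the 3 pairs of groups that differ in IWP2, on day 3, on day 3 with NaHCO3 and on day 5; bars are means and points the 2 libraries, with IWP2 in red and without it in blue. T and CDX2 reach 74.4 and 13.9 FPKM on average with NaHCO3 alone and are lower with IWP2 in both pairs of day 3, while SHISA2 is higher with IWP2 in all 3 pairs.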

How the data were processed

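RNA was extracted with RNAiso Plus and made into libraries with the VAHTS Universal V8 kit, per the labels' protocols. Per the submitters' processing notes, cutadapt 1.9.1, HISAT2 2.0.1 and HTSeq 0.6.1 were used with GRCh37; whether counting used strand is not given in the sources used here. The authors deposited raw counts per gene and FPKM values in a table of the 24 libraries of days 3 and 5. Their totals ran between 14794134 and 22796553 counts per library, and low genes carry the largest counting error.

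Tests ran on the deposited counts with edgeR 4.0.16 (robust quasi-likelihood fit, TMM scaling, limma 3.58.1) in R 4.3.3, with 1 mean per group over the 24 libraries and no replicate block. Genes reaching 1 FPKM in 2 or more of the 24 libraries entered (17286, holding 99.57% of counts), and p-values were Benjamini-Hochberg adjusted over all of them. Each SE was taken as the absolute log2 change over the square root of the F statistic. The deposited FPKM values chose the members and are printed beside the tests.

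The members, the 34 gene lists and the tests were chosen with earlier results of these data known. Named genes are a panel of 54, the 12 largest rises and 12 largest falls among called members that averaged 5 FPKM or more in the higher group and whose groups did not overlap, and, from every list described, at most 4 called members; others are said to be chosen after their values were seen. Libraries with the same replicate number did not deviate together (correlations of -0.03, 0.06 and 0.05 in the 3 pairs of groups), so the numbers were taken as names. Replicates differed by more than counting error, so no library was counted as a duplicate. Alternatives were other scalings, no filter, DESeq2 1.42.0, limma on log2(FPKM + 1) or log2(FPKM + 0.1), fewer libraries, a replicate block and leaving out each library.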

Additional observations from a re-analysis of the deposited data

Results flagged for a closer look

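The effect of IWP2 on day 3 differed with and without NaHCO3 for 54 members by edgeR's test of the difference itself. Among the named genes, the log2 difference (effect with NaHCO3 minus effect without it) was negative for the WNT targets AXIN2 (-1.01) and NKD1 (-1.29), for the ligands WNT3A (-3.36) and WNT5B (-1.23), and for RSPO3 (-2.16), an R-spondin that strengthens WNT signals. It was also negative for T (-2.62), CDX2 (-3.39), FGF4 (-4.25) and LIPG (-1.38), and positive for SOX2 (2.00).

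The effect of IWP2 differed between day 5 and day 3 for 536 members by the same kind of test. The log2 difference (effect on day 5 minus effect on day 3) was positive for DKK1 (3.03), LEFTY2 (3.48), NODAL (1.28), NPY (3.08), PDK1 (2.46) and SPON1 (1.25), and for the heart genes NKX2-5 (4.17) and TNNT2 (2.92). It was negative for the receptors FZD5 (-1.99) and FZD8 (-1.65), the ligand WNT11 (-1.27), the target SP8 (-2.54), the endoderm factors SOX17 (-2.13) and FOXA2 (-2.03), CYP26A1 (-2.23) and HAND1 (-1.14). The cadherins CDH1 (-1.16) and CDH22 (-2.36), the receptors CHRM4 (-3.52) and GRIK3 (-3.69), and CST1 (-3.33), FNDC4 (-1.17) and NGEF (-2.25) were negative as well. Several of these differences rest on very low levels on a single day. On day 5 LEFTY2 had 0.48 and 0.18 FPKM with IWP2, against 0 and 0.02 FPKM in the control. CHRM4 had 0.18 and 0.11 against 0.45 and 0.16 FPKM there, and CDH22 0.11 and 0.12 against 0.2 and 0.22 FPKM. For CYP26A1 these were 0.7 and 0.15 against 0.75 and 1.13 FPKM. TNNT2 was at 0.11 FPKM or less in every library of IWP2 and control on day 3. Groups of 2 libraries allow no test for a library far from the others.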

How the results depend on the processing

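None of the 38 named genes called on day 3 changed direction under an alternative. Some named genes that were not called changed sign, such as NANOG (-0.35 to 0.241) and FGF4 (-0.298 to 0.412). Single genes were followed in this way for IWP2 against the control on day 3 alone. Genes outside the 80 named genes tested, such as NR0B1, OTX1, COL6A6, CHRNA3, PDGFRB, NTS, FOXA1, FZD10 and EVX1-AS, were not followed, so how their calls hold is not known. The 82 members called on day 3 became 81 to 108 under other scalings, no filter, DESeq2, the members alone, the 4 libraries alone or without the 2 libraries with 2-DG of day 3. They became 43 with limma on log2(FPKM + 1), 46 on log2(FPKM + 0.1) and 41 with the libraries of day 3 alone. With limma on log2(FPKM + 1), 179 members were called with NaHCO3, 322 on day 5 and 313 for the difference between the days. The 54 members whose effect differed with NaHCO3 became 110 with no filter, 32 with limma on log2(FPKM + 0.1) and 115 without the 2-DG libraries; fitting day 3 by itself gave 13. Leaving out single libraries gave 45 to 59 calls on day 3, 240 to 272 with NaHCO3, 567 to 646 on day 5, 21 to 42 for the difference with NaHCO3 and 440 to 507 for that between days. The cause of these shifts was not tested, beyond there being fewer libraries in some. Replicate numbers are shared by name alone: as a block they gave 77 calls on day 3 (76 of the 82), 299 with NaHCO3, 654 on day 5, 53 and 529 for the 2 differences, and the one call lost among named genes was CDX1 (adjusted p = 0.0501; 0.000913 to 0.431 over its alternatives). Of 80 named genes tested, 38 were called and 15 of them stayed called under all 15 alternatives: DKK1, SP5, LINC01124, LGR5, NKD1, DACT1, EVX1, LIPG, SPON1, NPY, RXRG, ARHGAP24, FZD5, SHISA2 and FNDC4. Of the 42 not called, 40 were called under no alternative. Genes such as CDX1, CDX2 and MSGN1 rest on few counts in these libraries.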
